A study of Mus musculus with 6 samples.

Results

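The genes described here encode the protein translocases of mitochondria, the Tomm genes of the outer membrane and the Timm genes of the inner membrane and the space between the membranes. They were taken from a table of read counts from mouse hearts as every gene whose symbol starts with Timm or Tomm followed by a digit, leaving out marked pseudogenes, of which the table held 0. The rule found 25 of 35976 genes, 11 Tomm and 14 Timm. One of the 11, Tomm6os, is not a translocase but a non-coding RNA gene on the strand opposite Tomm6. Of the 24 protein-coding genes, 22 had enough counts to be tested. The other 2, Tomm20l and Timm8a2, had 0 to 2 counts in each library and are described no further.

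Nearly all mitochondrial proteins are made in the cytosol and carried across the mitochondrial membranes. The TOM complex of the outer membrane is the common entry gate, with receptors that recognise precursors and a beta-barrel channel. Precursors with a cleavable presequence pass on to the TIM23 complex of the inner membrane and are pulled into the matrix by a motor built around a mitochondrial Hsp70, while carrier proteins are guided through the intermembrane space by small TIM chaperones to the TIM22 complex. Heart muscle is rich in mitochondria, and its respiratory chain is built almost wholly of imported subunits.

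The study compared 3 heart samples labelled sgRNA7 with 3 control heart samples, 1 library each, all from wild-type (WT) mice. The sgRNA7 samples had received AAV-MYL2-TadA8e-Sauri-U6-Camk2d sgRNA7, an adeno-associated virus in which a MYL2 promoter, active in heart muscle cells, drives an adenine base editor (the deaminase TadA8e joined to a Cas9 named Sauri) and a U6 promoter drives a guide against a splice site of Camk2d, the gene of the main cardiac CaM kinase II. The controls had no treatment, so virus, editor and edit were all absent from them and cannot be told apart here. Age, sex, viral dose, time after injection and the chamber sampled are not in the labels, which also do not say that each replicate is a separate animal. The p-values therefore measure the spread between these samples, which may be technical.

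Total counts ranged from 17062412 to 23097998 per library, and 23 of the 25 genes entered the test of 14879 genes. The guide targets Camk2d, which was lower in every sgRNA7 sample. It stood at 226.4, 219.6 and 224.3 CPM (counts per 1000000, with TMM scaling) in the controls and at 138.2, 129.8 and 163.8 CPM in the sgRNA7 samples. The libraries differ in their tissue markers. The summed level of 5 atrial markers was 20.2 to 1880 CPM in the controls, with control 2 high and controls 1 and 3 low, and 1160 to 2680 CPM in the sgRNA7 samples. Of 6 mesothelial markers, 4 were called higher (against 4.93% of all tested genes) and 1 lower (against 4.74%). Their summed level was 26.9 to 27.3 CPM in controls and 29.4 to 50.5 CPM in sgRNA7 samples. All 6 heart muscle markers were lower in every sgRNA7 sample than in any control, against 14.7% of all tested genes. Of these markers 3 were called lower at an adjusted p below 0.05, against 4.74% of all tested genes. Their summed level was 68900 to 71300 CPM in controls and 58000 to 62000 CPM in sgRNA7 samples. For Myl2 and Myl3, control 2 was the lowest control (5485 and 4682 CPM). Pneumocyte markers and the fast skeletal myosins Myh1, Myh2 and Myh4 stayed below 0.4 CPM in every library. Acta1, the skeletal actin that heart muscle also makes, had 14.9, 15.85 and 12.1 CPM in controls and 92.2, 114.9 and 38.1 CPM in sgRNA7 samples, without overlap (log2 2.52, SE 0.52, adjusted p 0.0656). Sample sgRNA7 2 stood apart in the fat marker Ucp1 (28.2 CPM, against 0.043 to 2.69 CPM in the others), in summed fat markers (67.9 against 26.5 to 31.6 CPM) and in the smooth muscle myosin Myh11 (162.3 against 51.2 to 70.1 CPM). The summed level of 5 macrophage and leukocyte markers was 62.5 to 69.4 CPM in controls and 55.2 to 59.3 CPM in sgRNA7 samples. Of these markers 2 were lower without overlap, against 14.7% of all tested genes, and 0 were called. Among 5 fibroblast markers 0 were called lower and 1 higher, Lum (log2 0.26, adjusted p 0.0182), against 4.93% of all tested genes. The part of these tissue differences in the results was not tested. In such bulk samples, fewer cells of a type and less RNA per cell cannot be told apart.

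The promoters are shown first for Timm17a, the 1 member called in the test below, and its paralogue Timm17b. Those of the members that share a motif follow. RefSeq promoters (GRCm38.p6, the assembly behind mm10) matched 22 of the 25 genes by symbol, and Timm21, Tomm40l and Tomm7 had no match. In the 250 bases before each start, 5′ to 3′ on the gene's strand, no match to the ETS, NRF1, YY1 or estrogen-related receptor motifs searched below was found in either paralogue, so their letters are all in lower case. The Timm17a window is chr1:135313738-135313987 (minus strand) and the Timm17b window chrX:7899086-7899335 (plus strand), in mm10 coordinates.
Timm17a: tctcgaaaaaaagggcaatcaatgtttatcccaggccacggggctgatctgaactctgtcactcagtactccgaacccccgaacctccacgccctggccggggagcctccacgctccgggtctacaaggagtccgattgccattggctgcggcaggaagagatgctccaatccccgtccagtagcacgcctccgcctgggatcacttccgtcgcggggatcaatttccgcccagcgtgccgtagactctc
Timm17b: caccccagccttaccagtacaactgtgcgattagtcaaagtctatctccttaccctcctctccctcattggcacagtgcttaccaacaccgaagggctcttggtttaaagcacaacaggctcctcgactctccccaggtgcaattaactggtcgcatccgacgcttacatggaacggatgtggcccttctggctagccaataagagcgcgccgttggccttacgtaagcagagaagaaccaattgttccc

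The ETS core CCGGAAG, which GABP and other ETS factors recognise, was the motif that the members held at the highest share relative to all promoters. Searched on both strands, it lay in 7 of 21 coding members with a window (33.3%), against 9.14% of 17491 protein-coding genes with a window of the same length. The match nearest the start, in capitals and as CTTCCGG where the core is on the other strand, is given for the 6 tested genes among them, with up to 12 bases on each side.
Timm8b (chr9:50603877-50603900, plus strand): ctgaagcgtgaaCCGGAAGgcagg
Timm10 (chr2:84826993-84827020, plus strand): ggtcggcgttttCTTCCGGatcaaagaa
Timm23 (chr14:32201920-32201950, minus strand): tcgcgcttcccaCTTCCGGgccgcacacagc
Tomm22 (chr15:79670812-79670842, plus strand): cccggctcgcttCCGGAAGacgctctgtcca
Tomm34 (chr2:164071190-164071220, minus strand): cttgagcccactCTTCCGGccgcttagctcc
Tomm70a (chr16:57121694-57121713, plus strand): gcatgccccgggCTTCCGGt
Tomm22 and Tomm70a each held 2 matches, and those of Tomm22 overlap as a palindrome. The NRF1 motif (GCGCA and GCGC with any base between them, both strands) was found in 1 member, Tomm20 (4.76% against 5.32% of all), where it is in capitals below. The estrogen-related receptor core AAGGTCA was found in 1, Timm8b (4.76% against 3.55%), the YY1 core AAGATGGC in 0 (against 1.5%) and the SP1 box GGGCGG in 10, Timm17a included (47.6% against 42.7%). A match is a description of letters and not a bound site.
Tomm20 (chr8:126945922-126945953, minus strand): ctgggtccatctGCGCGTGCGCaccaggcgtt

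Across the translocases the levels in sgRNA7 samples were slightly lower, and 1 gene, Timm17a, passed the test. It was the 1 member of 23 tested with an adjusted p below 0.05 (edgeR's quasi-likelihood test, Benjamini-Hochberg over 14879 genes), or 4.35%, against 9.66% of all tested genes called in either direction and 4.74% called lower. No member was called higher, against 4.93% of all genes, and 10 of the 23 had an unadjusted p below 0.05, against 11.7% of all genes that had one and were lower. The estimated change was below 0 for 21 of the 22 tested coding members, against 49.7% of all genes. Their median log2 change was -0.14, with a range of -0.25 to 0.02, while the median of all tested genes was 0.00. In 12 of the 23, every sgRNA7 sample was below every control, against 14.7% of all genes, and in 0 every sgRNA7 sample was above, against 14.6% (29.3% of all genes had groups that did not overlap in either direction). With standard errors (SE) near 0.07, a shift of the median size lies below the sizes that were called at these levels. Of the 727 called genes between 9 and 120 CPM in controls, the smallest absolute log2 change was 0.17 and 16 had one below 0.2.

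**Figure D1:**
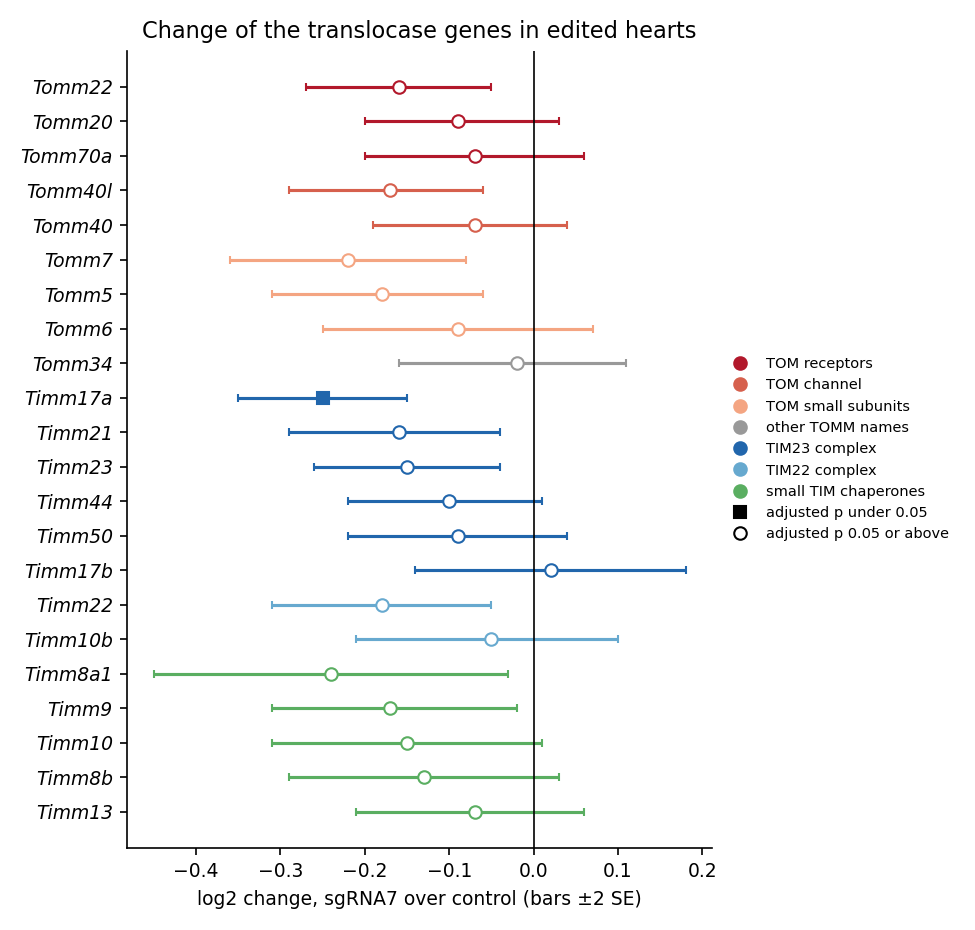
Log2 change of the 22 tested coding Timm and Tomm genes, sgRNA7 over control (x axis), grouped by role (colour), with bars of ±2 SE from edgeR. Timm17a, at -0.25, is the filled square past the threshold, Timm17b lies at 0.02, and the other points lie below 0.

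The receptors of the TOM complex stand on the cytosolic side and bind precursors. Tomm20 and Tomm22 bind presequence proteins, and Tomm70a binds carrier precursors delivered by cytosolic chaperones. Tomm22 had 83.3, 79.4 and 80.6 CPM in controls 1, 2 and 3 and 74.4, 71.2 and 71.9 CPM in sgRNA7 samples 1, 2 and 3. The groups did not overlap, and the log2 change was -0.16 (SE 0.05, adjusted p 0.0802). Tomm20 had 82.95, 88.95 and 83.4 CPM against 81.4, 78.0 and 81.25 CPM. Its groups also did not overlap, though control 1 and sgRNA7 sample 1 lay close together, and the change was smaller (log2 -0.09, SE 0.06, adjusted p 0.378). Tomm70a had 105.1, 116.7 and 108.5 CPM against 113.3, 96.75 and 104.0 CPM. Here sgRNA7 sample 1 stood above controls 1 and 3, and the log2 change was -0.07, with a range of -0.20 to 0.06 at ±2 SE. No receptor passed the threshold.

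Tomm40 is the beta-barrel that forms the channel, and Tomm40l is its paralogue. Tomm40 had 86.8, 88.1 and 95.1 CPM in controls and 86.6, 85.3 and 84.65 CPM in sgRNA7 samples. Control 3 stood apart above the other 5 libraries, and the change (log2 -0.07, SE 0.06, adjusted p 0.460) did not pass. Tomm40l had 73.15, 66.4 and 72.8 CPM against 62.0, 64.1 and 62.3 CPM. Its groups did not overlap, with control 2 nearest to the sgRNA7 samples (log2 -0.17, SE 0.06, adjusted p 0.0797). Of the exon bases of Tomm40l, 40.64% are shared with other genes, Nr1i3 on the opposite strand among them. Since the labels give no strand, reads there cannot be assigned to either gene, but Nr1i3 itself had 1.44 ± 0.22 CPM in controls (SD, n = 3). Per length, Tomm40l reached 0.48, 0.43 and 0.44 of the level of Tomm40 in controls and 0.41, 0.43 and 0.42 in sgRNA7 samples, a log2 difference of -0.10 in the ratio (exact two-sided permutation p = 0.1, adjusted p = 0.25 over 5 paralogue pairs). With 3 libraries against 3, 0.1 is the smallest p this test can give.

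Tomm5, Tomm6 and Tomm7 are the small subunits that help the TOM complex assemble and hold together. Tomm7 had 43.7, 38.6 and 43.2 CPM in controls and 33.9, 36.6 and 37.5 CPM in sgRNA7 samples, the largest estimated difference among the tested coding Tomm genes (log2 -0.22, SE 0.07, adjusted p 0.0685). Tomm5 had 45.9, 48.1 and 49.4 CPM against 44.35, 41.2 and 40.5 CPM (log2 -0.18, SE 0.06, adjusted p 0.0788). In both genes the groups did not overlap, control 2 being the lowest control for Tomm7 and sgRNA7 sample 1 the highest edited sample for Tomm5. Tomm7 was called without control 2 (adjusted p 0.0345) and Tomm5 without sgRNA7 sample 1 (0.0464). Each of these libraries was the nearest to the other group for its gene, so leaving it out widens the gap by construction. Tomm6 had 28.95, 25.4 and 25.7 CPM against 23.2, 26.7 and 25.35 CPM, and the groups overlapped (log2 -0.09, SE 0.08). Of its exon bases, 21.75% are shared with other genes, Tomm6os on the opposite strand among them. Tomm6os had about 1 CPM, at 0.90, 1.11 and 1.15 CPM in controls and 0.47, 1.02 and 1.23 CPM in sgRNA7 samples, and the groups overlapped. Tomm34, named as a translocase but known as a cytosolic co-chaperone, had 28.8, 28.65 and 30.3 CPM against 28.1, 30.4 and 27.98 CPM. Its estimated log2 change was -0.02 (SE 0.07), the closest to 0 among the tested coding Tomm genes.

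The TIM23 complex carries presequence proteins across or into the inner membrane. Of the 23 tested members 4.35% were called lower, near the 4.74% of all tested genes. Timm17a, which with Timm23 forms the membrane core of the translocase, is that 1 member. It had 115.3, 118.3 and 115.3 CPM in controls and 99.5, 96.9 and 96.2 CPM in sgRNA7 samples, so that the groups were separated by far more than the spread within either (116.3 ± 1.7 against 97.5 ± 1.8 CPM, SD, n = 3). The log2 change was -0.25 (SE 0.05, adjusted p 0.00645), which is 83.9% of control (78.3% to 89.9% at ±2 SE). It lies on the minus strand of chromosome 1 from 135301535 to 135313737 in mm10, in 6 merged exons of 917 bases that overlap no other gene of the table. The call was present without any 1 of the 6 libraries. With Myl7, an atrial marker, as a covariate the estimate was -0.28 and no longer called (adjusted p 0.136). With controls 1 and 3 left out, which leaves 1 control, it was -0.27 (adjusted p 0.184).

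Timm17b is the paralogue of Timm17a, and TIM23 complexes hold one or the other. It lies on the plus strand of chromosome X from 7899336 to 7907652 and overlaps no other gene of the table. It had 19.9, 20.6 and 20.8 CPM in controls and 19.5, 22.7 and 19.99 CPM in sgRNA7 samples. The groups overlapped, sgRNA7 sample 2 being the highest of all libraries, and the log2 change was 0.02, with a range of -0.14 to 0.18 at ±2 SE. Per length, Timm17a was the more abundant, at 11.86, 11.73 and 11.33 times the level of Timm17b in controls and 10.41, 8.73 and 9.82 times in sgRNA7 samples. Every sgRNA7 sample had a lower ratio than every control, with a log2 difference of -0.27 (exact two-sided permutation p = 0.1, adjusted p = 0.25 over 5 pairs). This difference narrows to -0.20 without sgRNA7 sample 2.

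**Figure D2:**
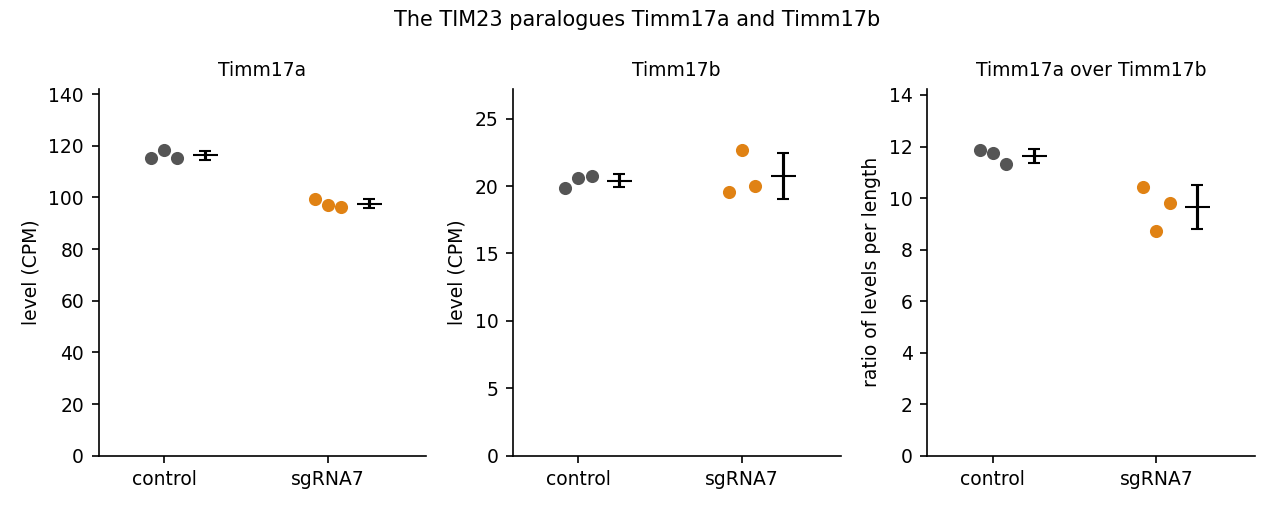
Levels of Timm17a and Timm17b in CPM and the ratio of their levels per length, by group, with 1 point for each of 3 libraries and the mean ± SD beside them. Timm17a lies at 115.3 to 118.3 CPM in controls and 96.2 to 99.5 CPM in sgRNA7 samples, while Timm17b overlaps between the groups.

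The other TIM23 genes did not pass. Timm23 had 104.7, 110.2 and 112.2 CPM in controls and 102.0, 93.75 and 99.9 CPM in sgRNA7 samples, without overlap (log2 -0.15, SE 0.06, adjusted p 0.117). This value is less certain than those of the other TIM23 genes. Transcripts of 5 other genes in GENCODE M21 each cover at least 50% of the Timm23 transcript at 95% identity or more. The treatment of reads that match several places is not given in the sources used here. Outside TIM23, the same search, which did not set aside genes at the same place, found 1 gene each for Tomm40l and Tomm6. Nr1i3, matching 68.9% of the Tomm40l transcript, overlaps Tomm40l on the opposite strand, so its match does not show a separate copy. The place of Gm21981, matching 87.6% of the Tomm6 transcript, was not looked at. Timm21, which links the translocase to the outer membrane and to respiratory complexes, had 37.74, 37.76 and 39.6 CPM against 33.35, 34.5 and 35.0 CPM, also without overlap (log2 -0.16, SE 0.06, adjusted p 0.116). The gap between the groups was narrow for Timm23, while for Timm21 it was wider than the range within either group. Timm44, which holds the import motor at the channel exit, had 91.6, 92.2 and 101.0 CPM against 87.2, 92.3 and 85.6 CPM (log2 -0.10, SE 0.06). Timm50, the receptor on the intermembrane side, had 41.3, 39.5 and 41.45 CPM against 35.95, 38.9 and 40.3 CPM (log2 -0.09, SE 0.06). Both overlapped between the groups, Timm44 through sgRNA7 sample 2 and Timm50 through sgRNA7 sample 3.

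The TIM22 complex inserts carrier proteins into the inner membrane, with Timm22 as its core. Timm22 had 27.0, 26.0 and 27.0 CPM in controls and 23.6, 24.2 and 22.7 CPM in sgRNA7 samples, without overlap (log2 -0.18, SE 0.07, adjusted p 0.111). Timm10b, a small TIM of this complex, had 26.8, 26.6 and 26.9 CPM against 23.7, 28.8 and 25.1 CPM. The controls of Timm10b were within 0.4 CPM of each other, while the sgRNA7 samples spread on both sides of them (log2 -0.05, SE 0.08), and 45.86% of its exon bases are shared with other genes, Dnhd1 among them. The subunit Timm29 stands outside the rule, since the table lists it under its older name 1810026J23Rik, and it had 62.0 ± 0.49 CPM against 59.3 ± 1.4 CPM (SD, n = 3; log2 -0.06, SE 0.05).

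The small TIM proteins work as hexameric chaperones in the intermembrane space, Timm9 with Timm10 and Timm8a1 or Timm8b with Timm13. Timm8a1, counterpart of a human deafness and dystonia gene, was the scarcest tested coding member, with 10.5, 9.32 and 9.92 CPM in controls and 8.91, 8.20 and 7.98 CPM in sgRNA7 samples. Its estimated change was nearly that of Timm17a but less precise (log2 -0.24, SE 0.10, adjusted p 0.174). Timm9 had 22.4, 23.8 and 25.3 CPM against 21.3, 21.7 and 20.8 CPM (log2 -0.17, SE 0.07, adjusted p 0.180). These 2 genes showed no overlap between the groups. The other 3 overlapped, with log2 changes of -0.15 for Timm10, -0.13 for Timm8b and -0.07 for Timm13. Timm8b had 48.9, 40.6 and 48.2 CPM against 40.2, 45.35 and 40.4 CPM, and Timm13 had 54.1, 46.9 and 53.4 CPM against 47.3, 52.0 and 47.35 CPM. In both genes control 2 was as low as sgRNA7 samples 1 and 3, and sgRNA7 sample 2 was nearer to controls 1 and 3. Control 2 is also the 1 control with high atrial markers. With controls 1 and 3 left out, their estimates were 0.06 for Timm8b and 0.06 for Timm13.

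Outer and inner membrane genes were compared as 9 tested coding Tomm and 13 tested Timm genes. The median log2 change was -0.09 for Tomm and -0.15 for Timm, and groups did not overlap for 6 of the 9 and 6 of the 13, all lower, against 14.7% of all tested genes. The summed level per length, in CPM per kilobase of exon, was 350.0, 344 and 355 for the Tomm genes in controls and 322, 316 and 316 in sgRNA7 samples. The Timm genes summed to 549, 541 and 567 in controls and 496, 509 and 485 in sgRNA7 samples. Each sum was lower in every sgRNA7 sample, and the balance between the membranes was little altered: the ratio of outer to inner was 0.637, 0.635 and 0.627 in controls and 0.649, 0.621 and 0.651 in sgRNA7 samples, whose groups overlap. The log2 difference of this ratio was 0.017, and without the most abundant gene of each side, Tomm22 and Timm17a, it was -0.005.

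**Figure D3:**
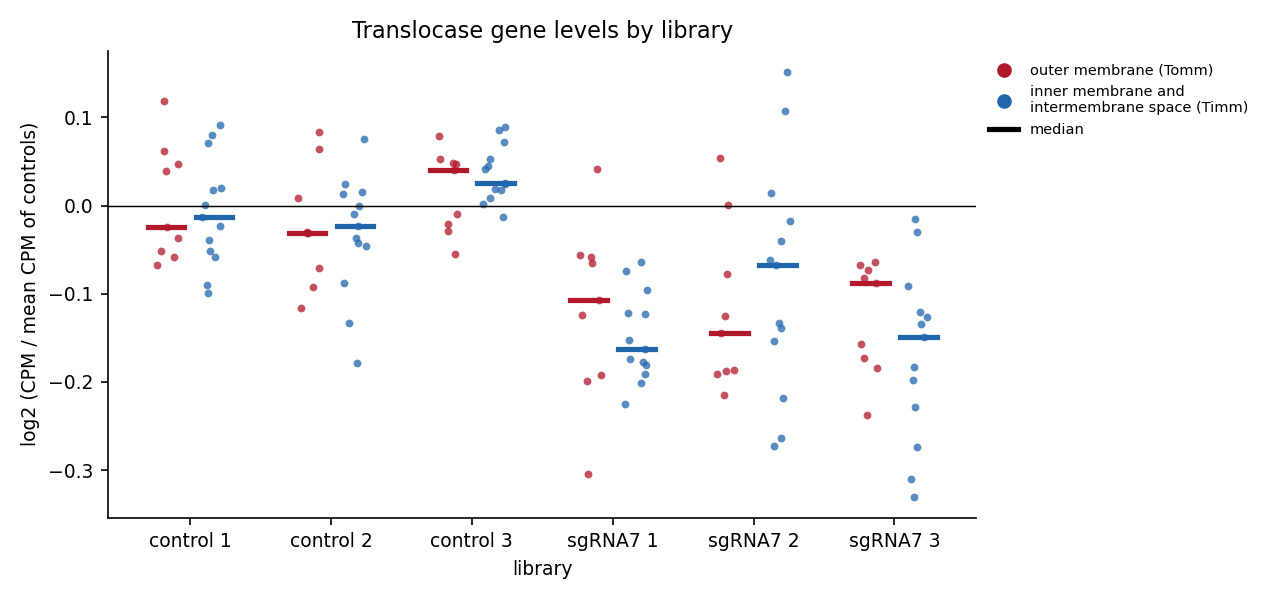
Level of each of 22 tested coding members in each library, as log2 of its CPM over the mean of the 3 controls (y axis), for Tomm genes (red) and Timm genes (blue), with medians as lines. The medians over all 22 lie between -0.03 and 0.03 in controls and at -0.14, -0.13 and -0.14 in sgRNA7 samples, and the points of sgRNA7 sample 2 spread widest upwards.

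Looked at by library, 22 of 22 members were below their control mean in sgRNA7 sample 3, 21 in sample 1 and 17 in sample 2, the library with the high fat and smooth muscle markers, whose part in this was not tested. The lowest of the 6 libraries was sgRNA7 sample 3 for 9 members, sample 1 for 8 and sample 2 for 4. The summed level of the 22 members was 1221 ± 21 CPM in controls and 1116 ± 10 CPM in sgRNA7 samples (SD, n = 3), or 91.4% of control. The summed heart muscle markers stood at 85.8% of control in the same samples. As a share of those markers the members were at 1.74%, 1.75% and 1.75% in controls and at 1.81%, 1.87% and 1.90% in sgRNA7 samples. This share was above the controls in each, while both sums were lower and the marker sum was the further from control. It is not a level per heart muscle cell.

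Per length, the tested coding members spanned a 15.7-fold range in control samples, from 8.08 to 127 CPM per kilobase. Timm17a was the most abundant, at 127 ± 1.9 CPM per kilobase, and did not overlap with Timm23, the next, at 93.9 ± 3.3. Timm23, Timm8b (87.1 ± 8.8) and Tomm22 (79.2 ± 2.0) overlapped with their neighbours, and Tomm5 followed at 69.6 ± 2.6. Tomm40, Timm44 and Timm10 formed a further group of overlapping neighbours, at 54.0 ± 2.7, 53.3 ± 3.0 and 50.5 ± 3.1. At the low end, Timm22 (8.72 ± 0.19), Timm10b (8.5 ± 0.054) and Timm8a1 (8.08 ± 0.47) overlapped as well (all SD, n = 3). Across the 22 genes, which share their libraries, the Pearson correlation of the log2 change with log2 length was 0.40 and with log2 control level -0.03, the shorter genes having on the whole the lower estimates. With the trend of each library with gene length removed, the median log2 change was -0.10.

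Most partners of the translocases did not pass the test. Over 46 tested genes of 6 lists (the motor, folding in the intermembrane space, outer membrane insertion, peptidases and inner membrane insertion, matrix chaperones and proteases, and cytosolic delivery), 4 fell and 0 rose (8.7% called lower, against 4.74% of all tested genes, the background of each list and of the regulators), with a median log2 change of -0.09. Of the 8 motor genes 1 fell, Dnajc15, a J-protein of the inner membrane, from 57.2, 51.5 and 49.9 CPM in controls to 43.1, 42.2 and 40.5 CPM in sgRNA7 samples (log2 -0.33, SE 0.07, adjusted p 0.00649). Its ratio per length to its relative Dnajc19 differed by -0.17 on the log2 scale, with overlapping groups (exact two-sided permutation p = 0.2, adjusted p = 0.333). The motor Hsp70 itself, Hspa9, had 634.7 ± 6.6 CPM against 559.8 ± 36 CPM (SD, n = 3; log2 -0.18, SE 0.05) and just missed the threshold (adjusted p 0.0533).

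Of the 10 matrix chaperones and proteases 2 fell, Hspe1, the lid of the matrix chaperonin (52.8, 46.8 and 47.6 to 40.7, 41.8 and 41.0 CPM; log2 -0.25, SE 0.06, adjusted p 0.0240), and Clpx, the unfoldase of a matrix protease (90.7, 99.4 and 96.5 to 83.8, 81.3 and 85.4 CPM; log2 -0.19, SE 0.06, adjusted p 0.0425). Of the 9 genes of cytosolic delivery 1 fell, the Hsp40 co-chaperone Dnaja2 (226.9, 244.5 and 243.6 to 220.1, 200.5 and 202.5 CPM; log2 -0.20, SE 0.06, adjusted p 0.0417). The calls did not hold without some of the libraries, while the estimates stayed at -0.28 to -0.20 for Hspe1, -0.23 to -0.17 for Clpx and -0.24 to -0.17 for Dnaja2. Fewer of all genes passed in some of these fits, 446 without control 3 and 728 without sgRNA7 sample 3 against 1438. Hspe1 was lost without control 1 (adjusted p 0.121), control 3 (0.083) or sgRNA7 sample 3 (0.0815). Clpx was lost without control 2 (0.131), control 3 (0.179), sgRNA7 sample 1 (0.0589), 2 (0.0565) or 3 (0.0966). Dnaja2 was lost without control 1 (0.0528), 2 (0.0995) or 3 (0.189) and without sgRNA7 sample 2 (0.0718) or 3 (0.166).

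Of the 3 genes of oxidative folding in the intermembrane space, 0 passed, and the smallest p were those of Gfer (log2 -0.17, SE 0.09) and Aifm1 (-0.08, SE 0.05). Of the 7 genes of outer membrane insertion 0 passed. Samm50, the core of the sorting machinery for beta-barrels such as Tomm40, had 219 ± 9.6 CPM against 196 ± 1.9 CPM (SD, n = 3; log2 -0.16, adjusted p 0.0709), and Mtx2 a log2 change of -0.10. Of the 9 genes of presequence cleavage and inner membrane insertion 0 passed, the smallest p being those of the peptidase Immp1l (log2 -0.19, SE 0.06, adjusted p 0.0768) and of Mipep (-0.14, SE 0.06, adjusted p 0.149).

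Among 14 regulators of mitochondrial genes 2 fell and 1 rose. Ppargc1a, a coactivator of genes for mitochondrial biogenesis, had 192.2, 164.1 and 201.4 CPM in controls and 109.2, 102.5 and 106.0 CPM in sgRNA7 samples (log2 -0.81, SE 0.07, adjusted p 5.34e-05). The nuclear receptor Esrra, one of its partners, fell from 154.1 ± 7.9 to 131.3 ± 4.4 CPM (SD, n = 3; log2 -0.23, SE 0.06, adjusted p 0.0182), a call lost without control 3 (0.128) or sgRNA7 sample 3 (0.0838), with estimates of -0.26 to -0.19 over the left-out libraries. Its relative Esrrb had 13.8, 12.96 and 13.9 CPM against 20.9, 15.0 and 19.8 CPM (log2 0.46, SE 0.11, adjusted p 0.0224). That call was lost without control 1 (0.0732), 2 (0.0701) or 3 (0.0919) and without sgRNA7 sample 1 (0.0551) or 3 (0.094), while the estimate stayed at 0.36 to 0.59. Gabpa and Nrf1, whose motifs were searched in the promoters, did not pass: Gabpa had 69.4 ± 2.5 CPM against 66.2 ± 5.9 CPM, and Nrf1 22.6 ± 0.69 against 22.1 ± 0.089 CPM (SD, n = 3).

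Other mitochondrial gene groups give the scale for these values. Among 38 genes taken by their Nduf symbols as subunits of respiratory complex I, Ndufa4 and Ndufa4l2 included, 14 fell and 0 rose. That is 36.8% called lower, against 4.74% of all tested genes. The 38 genes had a median log2 change of -0.18, and 28 had lower levels without overlap (73.7%, against 14.7% of all tested genes). Among 77 genes taken by their Mrpl and Mrps symbols as mitochondrial ribosomal proteins, Mrps36 included, 10 fell and 0 rose. Their median was -0.14, with lower levels without overlap for 37 (48.1%). Among 39 tested Slc25 carriers, many of which the TIM22 route inserts, 4 fell (10.3%) and 1 rose, with a median of -0.05. Groups did not overlap for 7 lower (17.9%) and 7 higher. The median of the translocases equals that of the mitochondrial ribosomal proteins and lies between those of complex I and the carriers. The difference between these groups was not tested.

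**Figure D4:**
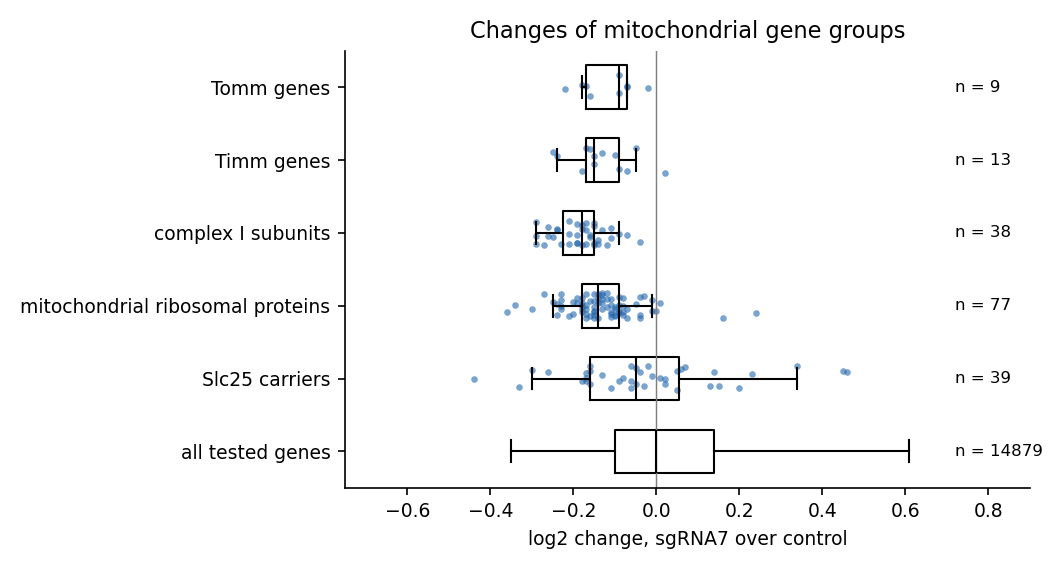
Log2 change, sgRNA7 over control (x axis), of the tested genes of each group, with the median as a line, boxes for the middle quartiles, whiskers from the 5th to the 95th percentile and a point per gene except for all tested genes. The Tomm and Timm medians of -0.09 and -0.15 lie beside -0.18 for complex I and -0.14 for mitochondrial ribosomal proteins, and that of all genes is 0.00.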

How the data were processed

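The authors deposited raw read counts per gene for 35976 genes in 6 heart libraries, with exonic gene lengths. The submitters' processing notes name FastQC, cutadapt, STAR, featureCounts and mouse build mm10. Software versions, strand setting and the handling of multimapping reads are not stated in the labels. Each library had 2 count columns, named raw_1 and raw_2, which differed for 0 genes, and the first was used. No pair of libraries in a group agreed within sampling noise (chi-square per degree of freedom 3.95 to 14.41).

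Genes were kept by filterByExpr (14879), scaled by TMM (factors 0.971 to 1.039) and compared by edgeR 4.0.16 (glmQLFit robust, group as the only term; R 4.3.3), with Benjamini-Hochberg adjustment over all tested genes and a threshold of 0.05. Log2 changes have no prior count. Tested on simulated counts of this comparison (14879 genes), the fit recovered known changes as follows: 68.7% of 1.5-fold and 82.8% of 2-fold changes were called. No change smaller than 1.5-fold was simulated, so these rates do not cover the smaller shifts of the members. Ratios of paralogues per length were tested by exact permutation (SciPy 1.17.1). Near-identical copies were searched with blastn among GENCODE M21 transcripts (at least 95% identity, both strands). Genes overlapping at the same place were not set aside in this search. Alternatives were other scalings, filters, tests (DESeq2 1.42.0, limma 3.58.1 voom), a replicate block, left-out libraries, a Myl7 covariate, a length correction and other thresholds. Named were all members and, of each related list, the genes past the threshold or the 2 with the smallest p. Members, lists and alternatives were chosen with earlier results of these data known.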

Additional observations from a re-analysis of the deposited data

How the results depend on the processing

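Timm17a was called lower in every alternative run except Myl7 as a covariate (adjusted p 0.136) and controls 1 and 3 left out (0.184), where 0 members were called. The number of all genes called also differed between fits, so the counts in this section do not by themselves describe the members or the related genes. The number of members called lower was 1 with all libraries, 2 with no filter, 6 with voom and 5 at a threshold of 0.1. It was 1 to 3 without single libraries (3 without control 2, 2 without sgRNA7 sample 1). Of these, Tomm genes made up 0 with all libraries, 1 with no filter, 4 with voom, 4 at a threshold of 0.1 and 0 to 2 without single libraries, and Timm genes 1, or 2 with voom and 0 with the covariate or with controls 1 and 3 left out. No member was called higher in any alternative.

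The 46 related and 14 regulator genes gave 6 calls lower and 1 higher. Lower calls were 11 with voom, 3 with the replicate block, 1 with the covariate, 1 with controls 1 and 3 left out, 2 at a threshold of 0.01, 11 at 0.1, and 2 to 7 without single libraries (2 without control 3 or sgRNA7 sample 3). The higher call, Esrrb, was lost (0 calls) with the covariate, with controls 1 and 3 left out, at 0.01, and without any 1 library but sgRNA7 sample 2 (range 0 to 1). The median log2 change of the coding members was -0.10 with the length trend removed and -0.15 to -0.11 in the other alternatives.

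The estimate turned positive for Timm13 (0.06 and 0.06) and Timm8b (0.05 and 0.06) with the covariate and with controls 1 and 3 left out, for Timm10b (0.01) and Tomm6os (0.09) without sgRNA7 sample 1 (lowest without another library -0.14 and -0.56), and for Tomm34 with upper-quartile scaling (0.00), without control 3 (0.00, lowest without another library -0.06), with the covariate (0.03) and with controls 1 and 3 left out (0.01). It turned negative for Timm17b with voom (-0.02) and without sgRNA7 sample 2 (-0.05). The outer to inner ratio turned to -0.005 without the most abundant gene of each side. All of these were uncalled, and the cause was not tested. The deviations of same-numbered libraries from their group means had correlations of 0.02, -0.10 and -0.08, against -0.06 to 0.11 for differently numbered ones. Deviations within groups of 3 libraries depend on each other, so these values cannot exclude a pairing. The labels state none. With the replicate block 1 member, Timm17a, was called, and 1077 genes in all against 1438.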
